A study of Mus musculus with 12 samples.

Results

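The genes described here encode the voltage-gated and potassium channels of the mouse. They are the genes whose symbol begins with Kcn or Cacn, or with Scn followed by a number and the letter a or b, and they come to 112 of the 13581 genes in the deposited tables. Kcnq1ot1, a noncoding RNA made from the strand opposite Kcnq1, had no coordinates and no values there. The other 111 were measured, and all 111 passed the filter on low values.

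The study mapped 5-hydroxymethylcytosine (5hmC), which Tet enzymes make by oxidising methylated cytosine, by a pull-down of glucose-tagged and biotinylated DNA followed by sequencing. The 12 libraries formed 7 groups. Whole heart of C57BL6/j mice was taken at embryonic day 14 (E14, 1 library), at neonatal day 1 to 2 (P1, 2 libraries) and at 8 weeks (W8, 2 libraries). Whole liver of the same strain was taken at the same ages, with 1, 2 and 2 libraries. The last group was the embryonic stem cell line EB5 (ESC, 2 libraries), which has a 129/Ola background and was grown with LIF. Both ESC libraries are listed at culture day 3. The labels name no engineered allele and no drug, but whether the EB5 line itself carries an engineered allele was not checked. They do not say whether replicates were separate animals or cultures. P-values therefore measure the spread between these libraries, which may be technical. In whole tissue, fewer cells of a type and less 5hmC per cell cannot be told apart.

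Levels are FPKM, the reads over a region scaled by its length and by the library's depth. As inferred from annotated lengths, the gene body window began 2000 bp after the gene's start. The promoter window was likewise taken to reach 2000 bp to either side of the start. W8 heart replicate 2 had 142778 reads over gene bodies, and the other 11 libraries had 604012 to 5761640. The median channel body held 8.06 reads in that library, a counting error of 35.2%, and 28 to 356 reads in the others. Across channel bodies the replicates correlated at r = 0.575 in W8 heart and at 0.813 to 0.968 in the other replicated groups (genes are not independent replicates), so counts are also given without that library. The E14 liver library was compressed. Its ratio of the 90th to the 10th percentile over long bodies was 3.08. The ratio was widest in W8 liver, at 12.2 in both libraries, and 6.18 to 9.03 in the rest. The part of this wider spread in the W8 comparisons was not tested. All 7 measured heart markers (of 8 listed) had higher 5hmC in W8 heart than in W8 liver, while 2 of 7 liver markers (of 8 listed) were lower. The liver markers summed to 3.40 FPKM in W8 heart replicate 1 and to 10.2 in W8 heart replicate 2, against 8.16 and 7.82 in W8 liver, so that this heart library exceeded both liver libraries. The heart markers summed to 13.6 FPKM in W8 heart replicate 1 and to 20.3 in W8 heart replicate 2, against 3.88 and 2.80 in W8 liver.

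Voltage-gated sodium channels start the action potential, calcium channels carry the current that couples it to contraction or to transmitter release, and potassium channels end it and set the resting potential. Heart muscle and nerve use different members of the same families. Hydroxymethylated cytosine is enriched over the bodies of active genes in many tissues. The measured members were divided by textbook roles into 19 channels of the heart, 35 of nerve, 4 of skeletal muscle and 53 others.

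As a whole, the channel genes ranked low in liver and near the middle in ESC. Their median body level was 0.441, 0.667 and 0.630, and 0.531 and 0.434 FPKM in E14, P1 and W8 heart. It was 0.390, 0.585 and 0.523, and 0.257 and 0.273 FPKM in E14, P1 and W8 liver, and 0.856 and 0.814 in ESC. The W8 liver medians were the lowest of all, although the median of all gene bodies there was 0.768 and 0.779 FPKM. Only 11 of 111 channel bodies lay above that median in each W8 liver library, against 48 and 40 in the W8 heart libraries and 50 and 52 in ESC. W8 liver was the group with the lowest mean for 65 members, whereas it was lowest for 18.7% of all genes. ESC was highest for 56 members (29.6% of all genes) and P1 heart for 30 (13.9% of all genes).

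**Figure D1:**
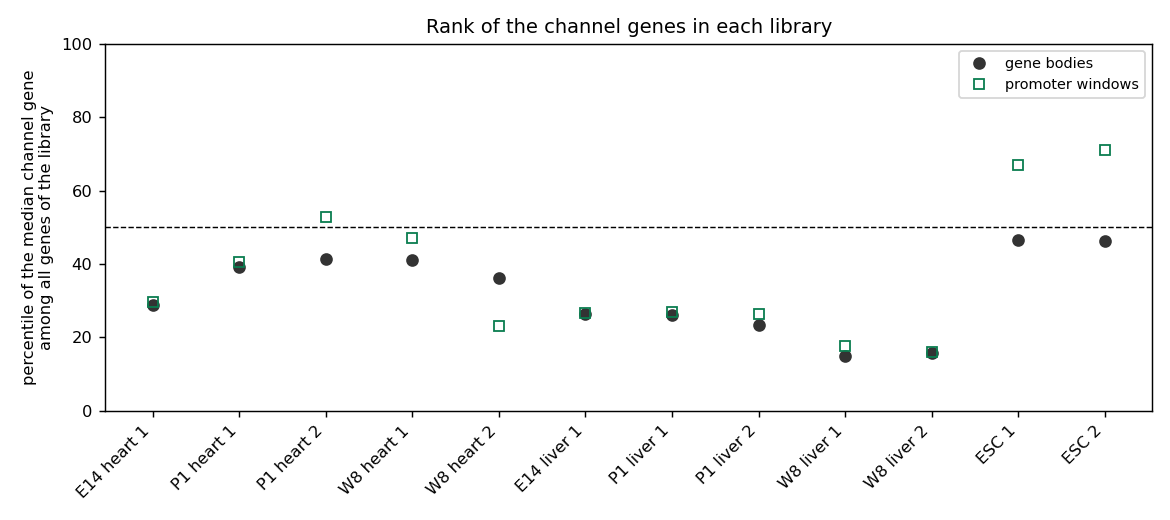
Percentile (0 to 100) of the median channel gene among all genes of each library, for gene bodies (filled circles) and promoter windows (open squares), with heart at the left, liver next and ESC at the right. The W8 liver bodies rank lowest, at 14.8 and 15.7, and the ESC promoters highest, at 67.0 and 71.2.

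Heart and nerve channels stood apart in heart. The median heart channel was at 0.857 FPKM in E14 heart, 1.50 and 1.34 in P1 heart, and 0.974 and 0.669 in W8 heart. The median nerve channel was at 0.291 FPKM in E14 heart, 0.436 and 0.463 in P1 heart, and 0.369 and 0.315 in W8 heart. In P1 heart the median heart channel ranked at the 83.4 and 82.0 percentile of all gene bodies, and the median nerve channel at the 21.5 and 27.5 percentile. In P1 liver those percentiles were 39.0 and 39.2 for heart channels and 14.6 and 12.7 for nerve channels, and in ESC 51.4 and 59.7 against 34.3 and 33.3. Nerve channels thus had the lower median in every group. P1 heart was the highest group for 13 of 19 heart channels and 5 of 35 nerve channels, and ESC for 4 and 22 of them.

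**Figure D2:**
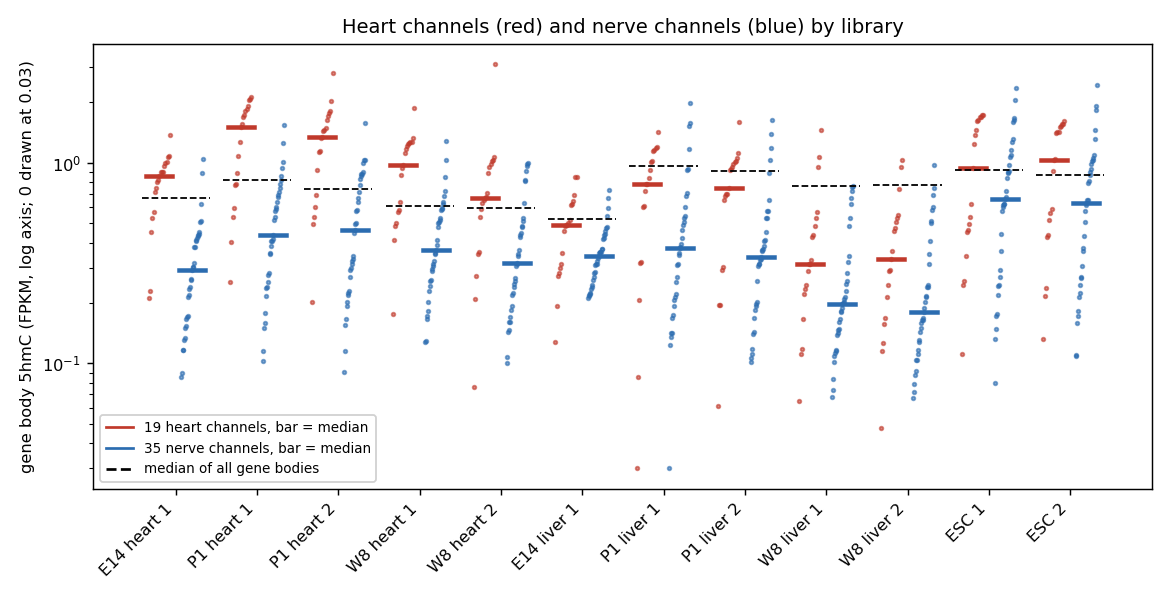
Gene body 5hmC (FPKM, log axis) of 19 heart channels (red) and 35 nerve channels (blue) in each library. Each point is a gene, coloured bars are list medians, dashed lines the median of all gene bodies, and values of 0 are drawn at 0.03. The red bars lie above the dashed line in the heart libraries and below it in the liver libraries.

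Kcnh2 encodes the pore of the rapid delayed rectifier that ends the cardiac action potential. Its body (chr5:23825407-23855422, minus strand, mm9; the tables give no chromosome, which was taken by accession from RefSeq) had 0.857 FPKM in E14 heart, 1.86 and 1.63 in P1 heart, and 1.25 and 1.02 in W8 heart. It had 0.624 FPKM in E14 liver, 1.15 and 1.02 in P1 liver, and 0.311 and 0.291 in W8 liver, and 1.73 and 1.43 in ESC. Heart was above liver at each age without overlap, and ESC lay close to P1 heart. The log2 difference of W8 heart from W8 liver was 1.68 ± 0.17 (SE, limma; adjusted p = 0.00419). At P1 it was 0.65 ± 0.17 (adjusted p = 0.0873), and 0.65 ± 0.14 (adjusted p = 0.0266) without W8 heart replicate 2, which enters that test only through the shared estimate of the spread.

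Kcnq1 encodes the pore of the slow delayed rectifier of heart, and a channel of epithelia as well. Over its long body (chr7:150295159-150612947, plus strand, mm9), from within which Kcnq1ot1 is transcribed, it had 0.748 FPKM in E14 heart, 1.27 and 1.13 in P1 heart, and 0.868 and 0.628 in W8 heart. It had 0.490 FPKM in E14 liver, 1.02 and 0.916 in P1 liver, and 0.569 and 0.548 in W8 liver, against 0.535 and 0.521 in ESC. Both P1 tissues lay above ESC, and heart lay above liver by a small margin. P1 heart exceeded ESC by 1.08 ± 0.18 (adjusted p = 0.0178) and P1 liver by 0.79 ± 0.18 (adjusted p = 0.0308). W8 heart differed from W8 liver by 0.36 ± 0.18 (adjusted p = 0.157), and by 0.57 ± 0.14 (adjusted p = 0.0234) without W8 heart replicate 2.

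Kcnj5, a subunit of the atrial potassium channel that acetylcholine opens, had 1.08 FPKM in E14 heart, 2.12 and 1.34 in P1 heart, and 0.938 and 0.893 in W8 heart over its body (chr9:32122368-32149822, minus strand, mm9). It had 0.460 FPKM in E14 liver, 0.726 and 0.747 in P1 liver, 0.247 and 0.157 in W8 liver, and 0.452 and 0.561 in ESC. Every heart library was above every liver and ESC library. W8 heart exceeded W8 liver by 1.86 ± 0.26 (adjusted p = 0.00589), and P1 heart exceeded ESC by 1.61 ± 0.26 (adjusted p = 0.0171).

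Kcnj2, the inward rectifier that holds the resting potential of heart muscle, was the heart channel with the highest difference at P1. Its body (chr11:110929478-110938135, plus strand, mm9) had 0.803 FPKM in E14 heart, 2.09 and 1.49 in P1 heart, and 0.634 and 0.359 in W8 heart. It had 0.356 FPKM in E14 liver, 0.606 and 0.195 in P1 liver, 0.235 and 0.213 in W8 liver, and 0.344 and 0.437 in ESC. Heart and liver did not overlap at P1 or W8. The difference at P1 was 2.10 ± 0.45 (adjusted p = 0.0626; 0.0225 without W8 heart replicate 2), that at W8 0.89 ± 0.45 (adjusted p = 0.165), and P1 heart exceeded ESC by 1.99 ± 0.45 (adjusted p = 0.0352).

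The 250 bases upstream of the start that RefSeq gives for these 3 genes are shown because 5hmC forms mainly at CG sites. Whether they lie inside the promoter windows compared further on was not checked. The stretches come from RefSeq (GRCm38.p6, an assembly other than that of the tables), are written 5′ to 3′ on the strand of the gene, and CG is in capitals. Kcnj5 is at chr9:32344345-32344594 on the minus strand, Kcnh2 at chr5:24329592-24329841 on the minus strand and Kcnj2 at chr11:111065914-111066163 on the plus strand.
Kcnj5: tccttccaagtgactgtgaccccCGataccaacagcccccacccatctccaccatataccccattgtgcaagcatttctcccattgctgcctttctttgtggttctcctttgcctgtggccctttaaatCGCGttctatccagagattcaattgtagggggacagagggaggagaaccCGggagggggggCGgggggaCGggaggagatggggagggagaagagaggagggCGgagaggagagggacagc
Kcnh2: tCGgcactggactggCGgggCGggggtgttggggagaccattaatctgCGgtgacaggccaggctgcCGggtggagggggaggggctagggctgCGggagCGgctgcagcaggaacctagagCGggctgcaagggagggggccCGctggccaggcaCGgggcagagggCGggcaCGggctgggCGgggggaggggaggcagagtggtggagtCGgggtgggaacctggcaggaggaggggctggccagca
Kcnj2: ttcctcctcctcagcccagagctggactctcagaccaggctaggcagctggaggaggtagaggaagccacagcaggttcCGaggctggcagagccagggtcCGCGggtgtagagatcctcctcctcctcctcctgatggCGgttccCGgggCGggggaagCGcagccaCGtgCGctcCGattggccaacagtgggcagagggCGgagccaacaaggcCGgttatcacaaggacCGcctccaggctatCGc
The Kcnj5 stretch holds 7 CG sites, and those of Kcnh2 and Kcnj2 hold 14 each. CG reads the same on both strands, and at least 1 site is present in 91.7% of all RefSeq promoter stretches of this length. Such a stretch was matched for 83 of the 112 channel genes, with a median of 8 CG sites against 6 over all genes. The median was 14 for the 13 heart channels matched and 8 for the 26 nerve channels matched.

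Cacna1c, the L-type calcium channel that triggers contraction, had 0.968 FPKM in E14 heart, 1.80 and 1.70 in P1 heart, and 1.22 and 0.669 in W8 heart over its body (chr6:118543910-119144249, minus strand, mm9). It had 0.490 FPKM in E14 liver, 0.840 and 0.703 in P1 liver, 0.329 and 0.331 in W8 liver, and 0.624 and 0.589 in ESC. The heart libraries lay above the liver libraries at each age. The difference was 1.28 ± 0.26 at W8 (adjusted p = 0.0137) and 1.11 ± 0.26 at P1 (adjusted p = 0.0677; 0.00646 without W8 heart replicate 2), and P1 heart exceeded ESC by 1.42 ± 0.26 (adjusted p = 0.0212).

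Cacnb2, the beta subunit that brings the L-type channel to the membrane, had 0.530 FPKM over its body in E14 heart, 0.774 and 0.693 in P1 heart, and 0.503 and 0.273 in W8 heart. It had 0.273 FPKM in E14 liver, 0.321 and 0.301 in P1 liver, 0.167 and 0.169 in W8 liver, and 0.247 and 0.218 in ESC. Heart lay above liver at each age, at lower levels than for Cacna1c. The difference of heart from liver was 0.88 ± 0.25 at W8 (adjusted p = 0.0362) and 1.07 ± 0.25 at P1 (adjusted p = 0.0690; 0.00711 without W8 heart replicate 2), and P1 heart exceeded ESC by 1.40 ± 0.25 (adjusted p = 0.0205).

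**Figure D3:**
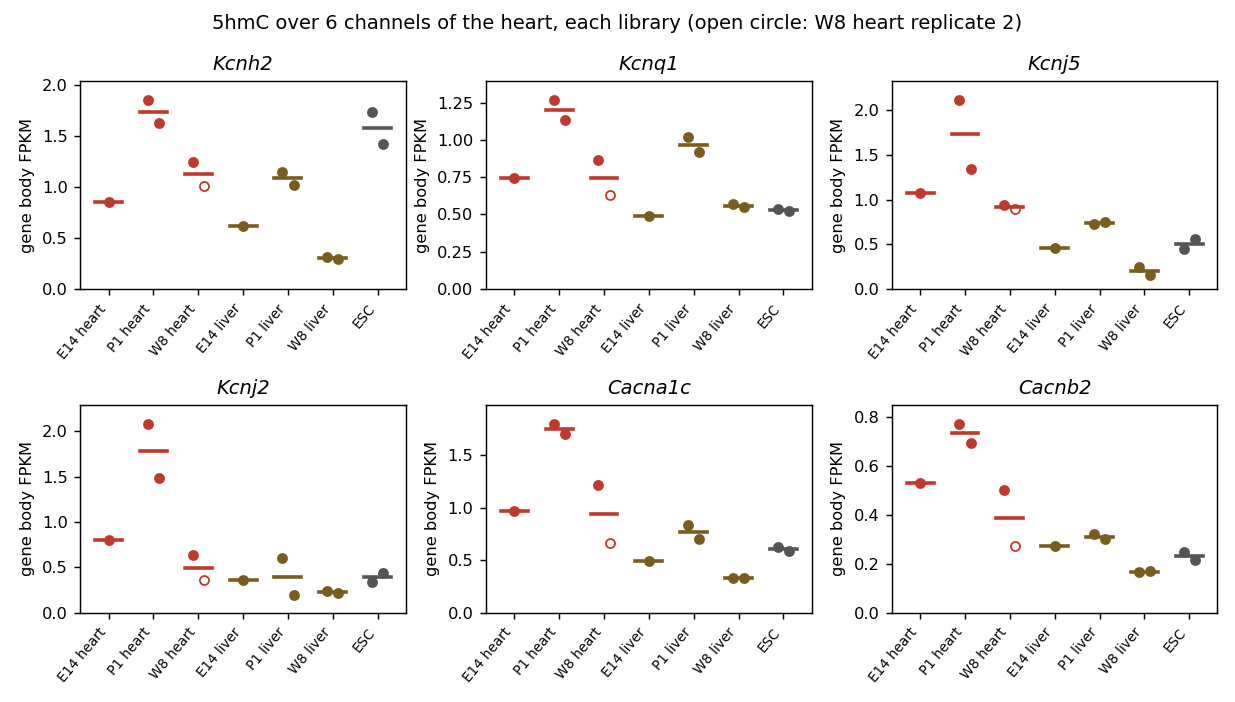
Gene body 5hmC (FPKM) of 6 heart channels in each library, with heart (red) at the left, liver (brown) next and ESC (grey) at the right. Points are libraries, bars group means, and the open circle is W8 heart replicate 2. Kcnj5, Kcnj2, Cacna1c and Cacnb2 peak in P1 heart, while Kcnh2 is about as high in ESC as in P1 heart.

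The rest of the heart list varied in level and in pattern. Kcnk3, a tandem-pore channel that holds the resting potential, had 1.92 and 2.02 FPKM in P1 heart, against 1.19 and 1.01 in P1 liver, but 1.33 and 1.04 in W8 heart, against 1.07 and 0.952 in W8 liver. Its tissues were thus apart at P1 and overlapped at W8. Cacna1h, a T-type calcium channel, had 1.56 and 1.44 FPKM in P1 heart, against 1.15 and 0.958 in P1 liver, and lay at 1.69 and 1.52 in ESC. Kcnip2, a subunit of the transient outward channel, had 1.08 and 1.15 FPKM in P1 heart, against 0.917 and 0.983 in P1 liver, with ESC above both at 1.46 and 1.56. Kcnj3 was the lowest of the list, with 0.255 and 0.201 FPKM in P1 heart, against 0.0851 and 0.0614 in P1 liver. Kcnj8 had 0.889 and 1.46 FPKM in P1 heart, against 1.42 and 1.59 in P1 liver, so that these groups overlapped with liver the higher. Scn4b, a beta subunit of sodium channels, had 0.401 and 0.538 FPKM in P1 heart, against 0.612 and 0.656 in P1 liver, and was highest in ESC at 0.940 and 1.05. Kcnj8 and Scn4b were the 2 heart channels with a negative difference at P1.

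Over all 12 libraries the mean level of a channel body ran from 0.0869 FPKM for Kcnh8 to 1.78 for Kcnk5. Kcne1 was at 1.43, Cacng1 at 1.42 and the calcium beta subunit Cacnb3 at 1.39. At the low end were Kcnip4 and the sodium channel Scn9a of sensory neurons at 0.124 each, and Kcnj3 at 0.135. Within families the spread was wide, from 0.0869 for Kcnh8 to 1.38 for Kcnh3 among Kcnh channels, and from 0.179 for Kcnc2 to 0.763 for Kcnc4 among Kcnc channels.

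The comparison of W8 heart with W8 liver asked where the adult tissues differ. Of 111 channel bodies 42 were higher in W8 heart and 4 were lower, against 9.48% of all 13498 bodies higher and 21.3% lower. Without W8 heart replicate 2 the counts were 56 and 4 (12.9% and 26.9% of all bodies, 39.7% in all), without W8 heart replicate 1 they were 46 and 12, and when either W8 liver replicate was left out no member was called. Kcne3 and Cacng2, both higher with all libraries, did not pass without W8 heart replicate 2 (adjusted p = 0.0709 and 0.0599). No share of all bodies is given for the count without W8 heart replicate 1. The median difference over the members was 0.58, against -0.32 over all genes. The 2 libraries of each tissue did not overlap for 77 members with heart higher and 9 with heart lower (21.7% and 46.4% of all bodies).

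Heart channels passed in 9 of 19 cases, all higher, with a median of 0.89. Besides Kcnj5, Kcnh2, Cacna1c and Cacnb2 they took in Kcnd3, which carries the transient outward current (1.42 ± 0.22), the inward rectifier Kcnj12 (1.13 ± 0.24), the T-type calcium channel Cacna1g (0.93 ± 0.17) and the calcium channel auxiliary subunit Cacna2d1 (0.99 ± 0.25). The count was 13 of 19 without W8 heart replicate 2. Of those not past the threshold, Kcnj8, the potassium channel of vascular muscle that ATP closes, differed by -0.43. Kcna5, an atrial delayed rectifier, differed by 2.73, but its body spans 1003 bp and held about 1 read in W8 heart replicate 2.

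Part of the nerve list was also higher in W8 heart than in W8 liver. Of 35 such bodies 14 were higher and 2 lower, with a median difference of 0.58. Kcnc1, a fast potassium channel of rapidly firing neurons, had 0.595 and 0.629 FPKM in W8 heart, against 0.180 and 0.159 in W8 liver (1.49 ± 0.20, adjusted p = 0.00543). Scn10a, a sodium channel of sensory neurons, had 0.685 and 0.435 FPKM in W8 heart, against 0.166 and 0.181 in W8 liver (1.33 ± 0.24, adjusted p = 0.01). Both genes lay above liver in both heart libraries, at levels of at most 0.685 FPKM. Scn10a and Scn11a lie on the same strand of one stretch of chromosome 9, where the Scn10a body is at chr9:119517584-119601478 and the Scn11a body, also called (0.96 ± 0.26), at chr9:119662881-119732574 (mm9). Cacna2d2 (1.10 ± 0.26), Kcnj6 (1.03 ± 0.24), Kcnip1 (1.01 ± 0.20), Kcnq5 (0.98 ± 0.23), Scn3b (0.97 ± 0.22) and Cacna1a, the channel of presynaptic terminals (0.83 ± 0.18), were further members of this group. Kcna1, a potassium channel of axons, had the highest difference on the nerve list without passing, with 0.356 and 0.824 FPKM in W8 heart, against 0.139 and 0.0673 in W8 liver (1.84 ± 0.74, adjusted p = 0.0976), and its relative Kcna2 differed by 1.59 ± 0.76 (adjusted p = 0.144). The nerve channels with the highest means over all libraries were Kcnh3 (1.38 FPKM), the inward rectifier Kcnj9 (1.06 FPKM) and the glial inward rectifier Kcnj10 (0.859 FPKM). Kcnt2, a sodium-activated potassium channel, was lower in W8 heart (-0.67 ± 0.17).

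Most markers of nerve and glia did not pass the test at W8. Of 13 measured markers (of 15 listed) 2 were higher in W8 heart, Th (1.26 ± 0.17) and Stmn2 (1.12 ± 0.25), and none was lower, against the 9.48% and 21.3% of all bodies. The median difference over the 13 was 0.62, and 4 were higher without W8 heart replicate 2. Their summed level was 7.49 and 5.22 FPKM in W8 heart, where 3 markers were at 0 in replicate 2, and 3.69 and 3.91 FPKM in W8 liver. At P1 the sums were 9.23 and 8.46 FPKM in heart and 8.85 and 8.86 in liver, and ESC had the highest at 15.2 and 14.1. The part of these cells in the channel results was not tested.

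By family, the inward rectifiers (Kcnj) were higher in W8 heart for 6 of 13 members, Kcnh and Kcnq channels for 6 of 11, the potassium channel auxiliary subunits for 6 of 12, the pore-forming calcium subunits (Cacna1) for 5 of 9, and Kcna to Kcnd channels for 5 of 13. The calcium auxiliary subunits followed with 4 of 16, the pore-forming sodium channels with 4 of 10, the calcium- or sodium-activated potassium channels with 2 of 8 and the tandem-pore channels (Kcnk) with 2 of 10. The modifier subunits Kcng, Kcns and Kcnv had 1 of 5 and the sodium beta subunits 1 of 4. The 4 lower bodies included Kcnt2 and the tandem-pore channels Kcnk4 and Kcnk5. Every Cacna1 and every Kcnh or Kcnq body had a positive difference, from 0.32 to 1.28 and from 0.36 to 1.68. Short bodies were called in smaller numbers. Of 36 bodies under 20 kb 6 were higher and 2 lower, and of 36 between 20 and 100 kb 17 and 1. Of 39 bodies of 100 kb or more 19 were higher and 1 lower. The median differences were 0.35, 0.71 and 0.58, and the log10 of body length correlated with the difference at r = 0.122 over the members. No share of all bodies of these lengths is given, so this may not be particular to channels. The difference between these length classes was not tested.

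**Figure D4:**
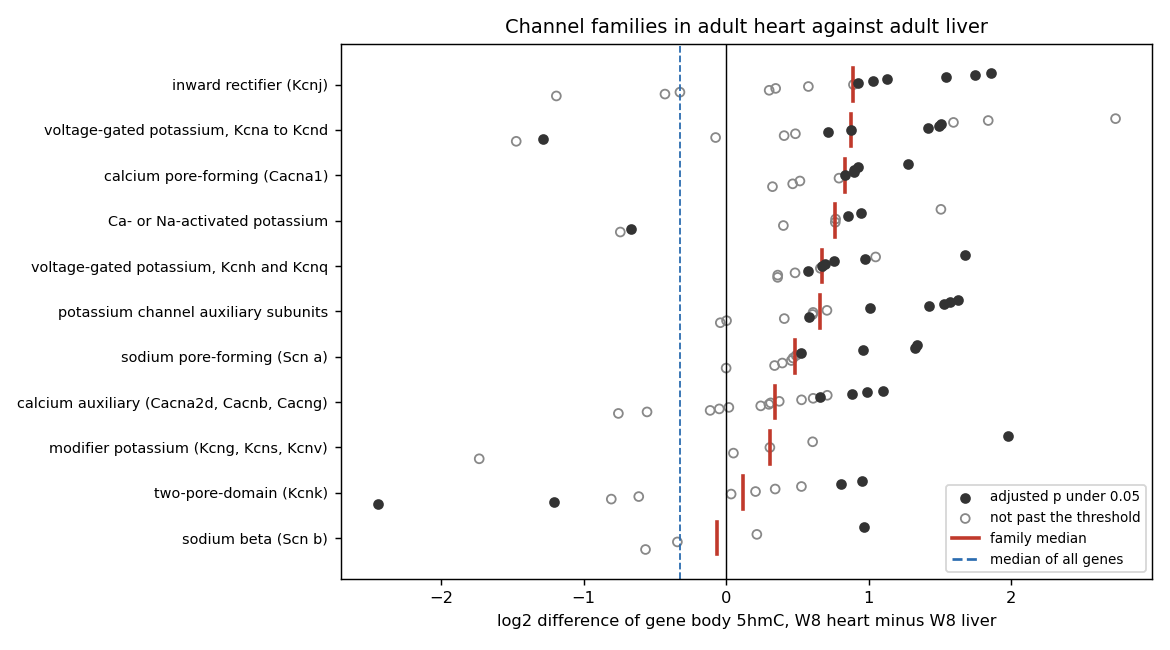
Log2 difference of gene body 5hmC, W8 heart minus W8 liver, for each of 111 channel genes by family. Filled points passed an adjusted p of 0.05 (limma), open points did not, red bars are family medians and the dashed line is the median of all genes at -0.32. Every family median lies to the right of the dashed line.

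Several bodies with high differences at W8 belonged to neither the heart nor the nerve list. Kcng1, a silent subunit that modifies Kcnb channels, had 0.573 and 1.46 FPKM in W8 heart, against 0.172 and 0.187 in W8 liver (1.97 ± 0.39, adjusted p = 0.0135), and its heart replicates lay more than 2-fold apart. Kcnj15, an inward rectifier of epithelia, had 0.732 and 1.14 FPKM in W8 heart, against 0.226 and 0.215 in W8 liver (1.74 ± 0.23, adjusted p = 0.00543). Kcnab2, an auxiliary subunit of Kcna channels, had 0.690 and 0.791 FPKM in W8 heart, against 0.185 and 0.215 in W8 liver (1.57 ± 0.16, adjusted p = 0.00419). The heart libraries of all 3 lay above the liver libraries. Kcnmb4 and Kcnmb1, auxiliary subunits of the large-conductance channel Kcnma1, differed by 1.53 ± 0.15 and 1.62 ± 0.43, and Kcnma1 itself by 0.94 ± 0.24. The Kcnmb1 body held 0.986 reads in W8 heart replicate 2. That body (chr11:33865013-33873641, mm9) lies wholly within the Kcnip1 body (chr11:33530551-33890836), which was also called. The same reads may count for both genes, so their calls are not independent. In the opposite direction, Kcnk5, an epithelial tandem-pore channel, had 0.926 and 1.62 FPKM in W8 heart, against 3.07 and 2.81 in W8 liver (-1.21 ± 0.26, adjusted p = 0.0166). It had the highest mean over all libraries of any channel body, 1.78 FPKM. Kcnk4, a mechanically gated relative, had 0.342 and 0 FPKM in W8 heart, against 0.746 and 1.05 in W8 liver (-2.44 ± 0.71, adjusted p = 0.0400, with no read in W8 heart replicate 2, and -1.20 ± 0.32, adjusted p = 0.0289, without W8 heart replicate 2).

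Among the 4 skeletal muscle channels, Cacna1s, the voltage sensor of excitation-contraction coupling (0.90 ± 0.19), and Scn4a, its sodium channel (0.52 ± 0.15), were higher in W8 heart, while Cacng1 (0.71) and Cacng6 (-0.05) did not pass. Of 21 measured genes (of 24 listed) that work with these channels, 2 were higher in W8 heart, the gap junction protein Gja1 (1.47 ± 0.32) and Popdc2, a membrane protein that binds cyclic AMP (0.90 ± 0.22). Nedd4l, a ubiquitin ligase for channel proteins (-0.70 ± 0.18), and Gpd1l, a modulator of sodium channels (-0.43 ± 0.13), were lower. Of all bodies 9.48% were higher and 21.3% lower in the same fit to all 12 libraries. Whether the share of these genes differs from that was not tested, and their counts changed without W8 heart replicate 2. Over the 21 genes the median difference was 0.13, and 0.27 without W8 heart replicate 2.

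The comparison of P1 heart with P1 liver put the same question to newborns. With all 12 libraries no channel body passed in either direction, against 0.348% of all bodies higher and 1.93% lower (2.27% in all), although 32 members had an unadjusted limma p under 0.05. The lowest adjusted p-values were 0.0605 for Kcnmb4 and 0.0626 for Kcnj2. Without W8 heart replicate 2, which belongs to neither group, 28 members were higher and 3 lower (5.9% and 16.5% of all bodies, 22.4% in all). Without W8 heart replicate 1 instead they numbered 27 and 3, with no share of all bodies given. The difference of 71 of 111 members was positive, against 32.6% of all genes, and the groups did not overlap for 54 members with heart higher and 18 with heart lower (17.6% and 44% of all bodies).

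At P1 the heart list led. Its median difference was 1.03, with 17 of 19 differences positive, and without W8 heart replicate 2 it had 14 of the 28 higher calls. The nerve list had a median of 0.15, 20 of 35 differences positive and 5 higher calls without that library. Beside Cacna1c, Cacnb2, Kcnj2, Kcnj5 and Kcnh2, the heart channels called in that fit included Cacna2d1 (1.10 ± 0.12), Kcnj12 (1.09 ± 0.19), Kcne1, the partner of Kcnq1 (1.05 ± 0.19), Kcnj3, the partner of Kcnj5 (1.03 ± 0.17), Kcnd3 (0.84 ± 0.12), Kcnk3 (0.80 ± 0.15), Cacna1g (0.60 ± 0.15) and Cacna1h (0.49 ± 0.13). Kcne1 had 2.05 and 2.81 FPKM in P1 heart, against 1.19 and 1.05 in P1 liver, above liver in both libraries. The nerve channels called were Cacng8 (1.49 ± 0.25), Kcnq5 (0.89 ± 0.12), Scn10a (0.81 ± 0.16), Kcnj6 (0.76 ± 0.14) and Kcnq3 (0.60 ± 0.14). Outside both lists, Kcna4, which also carries a transient outward current, had 1.07 and 0.786 FPKM in P1 heart, against 0.179 and 0.0958 in P1 liver (2.26 ± 0.31, adjusted p = 0.00929). Further bodies called there included Kcnn2 (0.97), Kcnj15 (0.84), Kcnd2 (0.81), Kcnmb4 (0.70), Kcnj4 (0.69) and Kcnma1 (0.46). Cacng6, a calcium channel subunit of skeletal muscle, had 0.858 and 0.784 FPKM in P1 heart, against 0 and 0.102 in P1 liver (2.96 ± 0.42, adjusted p = 0.00975), where it rested on 0 and 3 reads. Lower in P1 heart were Kcnn4, a calcium-activated channel of blood cells (-0.84 ± 0.23), Cacng1 (-0.72 ± 0.19) and Kcnk5 (-0.63 ± 0.15).

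E14 had 1 library of each tissue and no test. The heart library was higher for 58 of 111 members, against 66.45% of all genes, with a median difference of 0.05 (0.25 over all genes). Heart channels were higher in heart for 18 of 19 members, with a median of 0.56, and nerve channels for 9 of 35, with a median of -0.28. Past 2-fold, 8 members were higher in heart and 2 lower (7.96% and 2.57% of all bodies). Kcna5, with 8.03 and 2.00 reads, had the highest difference among the heart channels (2.42), against 1.11 for Kcnj5, 1.03 for Kcnj2 and 0.88 for Cacna1c. The E14 liver library is the compressed one, and the part of that in these values was not tested.

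**Figure D5:**
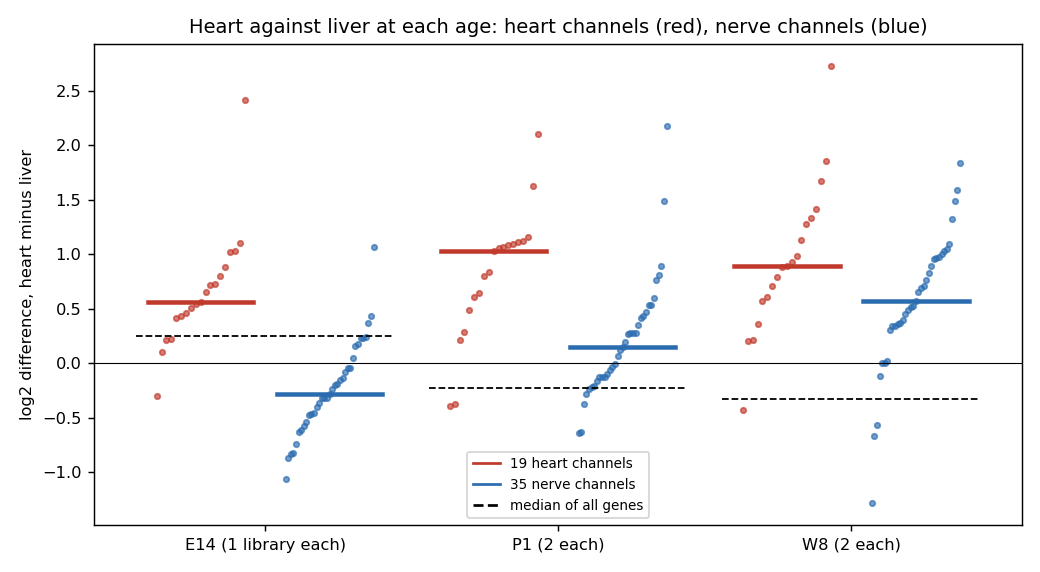
Log2 difference of gene body 5hmC, heart minus liver, at E14, P1 and W8 for 19 heart channels (red) and 35 nerve channels (blue). Points are genes, bars list medians and dashed lines the median of all genes. The heart bar stands at 0.56, 1.03 and 0.89, and the nerve bar at -0.28, 0.15 and 0.58.

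A test of tissue by age asked whether the difference of heart from liver itself changed between P1 and W8. No member passed (limma; 0.0148% of all bodies did), 32 had an unadjusted p under 0.05, and the lowest adjusted p was 0.0894, for Kcnab2 (1.47 ± 0.23). Without W8 heart replicate 1, which leaves that group with its shallow library, 20 members passed with a positive and 11 with a negative change (11.6% and 17.5% of all bodies). In 13 members (11.7%, against 7.72% of all genes) heart and liver did not overlap at either age and the sign turned. Kcne3, a partner of Kcnq1 in epithelia, had 0.942 and 0.442 FPKM in P1 heart, against 1.26 and 1.28 in P1 liver, and at W8 0.790 and 1.45 in heart and 0.353 and 0.356 in liver. Heart was the lower tissue at P1 and the higher at W8, and the change was 2.31 ± 0.52 (adjusted p = 0.105). Its W8 heart replicate 2 rested on about 1.97 reads, and its W8 call was not made without that library (1.01 ± 0.37, adjusted p = 0.0709). Kcnn2, a small-conductance calcium-activated channel, had 0.473 and 0.413 FPKM in P1 heart, against 0.217 and 0.162 in P1 liver, and at W8 0.326 and 0.148 in heart and 0.435 and 0.416 in liver. It was higher in heart at P1 and lower at W8, with a change of -1.72 ± 0.40 (adjusted p = 0.114).

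Within tissues, W8 and P1 differ also in read format, with W8 and E14 libraries read from 1 end at 50 bp and P1 and ESC libraries from both ends at 75 bp, so age and format cannot be told apart. In liver, no member was higher at W8 than at P1 and 30 were lower, against 0.933% of all bodies higher and 8.9% lower (9.83% in all). Without W8 heart replicate 2 the counts were 2 and 54 (3.72% and 21.1%, 24.9% in all). For the settings that follow no share of all bodies is given. Without W8 heart replicate 1 the counts were 1 and 54. They were 1 and 9 after centring every library on its median, 6 in all without P1 liver replicate 2, and 0 when P1 liver replicate 1 or either W8 liver replicate was left out. The median difference was -0.67 over the members and -0.23 over all genes, and the libraries did not overlap for 86 members with W8 lower and 5 with W8 higher (51% and 19.3% of all bodies). Kcnh2 fell by 1.63 on the log2 scale in W8 liver (SE 0.17, adjusted p = 0.00916), Kcnj5 by 1.57 (SE 0.26) and Kcnab2 by 1.44 (SE 0.16). Markers of other cells had negative medians in the same comparison, -1.23 over 6 erythroid markers (of 8 listed) and -1.03 over 13 nerve and glia markers. Of these, 1 and 3 were lower at W8, and 4 and 6 without W8 heart replicate 2. The remaining marker lists had negative medians as well. These were -0.95 for liver, -0.71 for heart, -0.55 for ESC and -0.43 for smooth muscle markers. The erythroid markers summed to 4.73 and 5.34 FPKM in W8 liver, against 8.96 and 8.22 in P1 liver, and none was at 0 in these libraries. The nerve and glia markers summed to 3.69 and 3.91 FPKM in W8 liver, against 8.85 and 8.86 in P1 liver. Their part in the channel result was not tested. The calls took in 6 of 19 heart channels, 9 of 35 nerve channels, 2 of 4 skeletal muscle channels and 13 of 53 others. In heart no member passed between W8 and P1 (limma; 0.0148% of all bodies did, and 30 members had an unadjusted p under 0.05), while without W8 heart replicate 1 5 were higher and 45 lower (7.67% and 30.6% of all bodies). The median was -0.33 over members and -0.30 over all genes, and 49 members were lower at W8 without overlap and 6 higher (43.4% and 4.09% of all bodies).

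Against ESC, the newborn tissues differ in strain as well, and both comparisons share the ESC libraries. In P1 heart 9 channel bodies were higher and 15 lower than in ESC (5.59% and 7.11% of all bodies). The counts were 14 and 31 without W8 heart replicate 2 (13.6% and 19.5%, 33.1% in all). They were 14 and 30 without W8 heart replicate 1, and 14 and 10 after median centring. No share of all bodies is given for those last settings. No member was called when either ESC replicate was left out, and 4 and 2 were when P1 heart replicate 1 or replicate 2 was. Heart channels had a median of 0.38 with 5 higher and 1 lower, and nerve channels a median of -0.38 with 2 higher and 7 lower. The 5 higher were Kcnj2, Kcnj5, Cacna1c, Cacnb2 and Kcnq1, and the 1 lower was the sodium channel subunit Scn4b (-0.98 ± 0.22). Kcnv2, a silent subunit of the retina (1.44 ± 0.32), Kcnj15 (1.36 ± 0.23), Kcnq5 (1.10 ± 0.23) and Cacnb4 (0.60 ± 0.13) made up the rest of the higher bodies.

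Among the lower bodies, Cacng2, which traffics glutamate receptors in neurons, had 0.255 and 0.219 FPKM in P1 heart, against 1.09 and 0.931 in ESC (-1.80 ± 0.19, adjusted p = 0.0116). Both ESC libraries lay above both P1 heart libraries. Kcnu1, a channel of sperm (-1.34 ± 0.17), Kcnc4 (-1.20 ± 0.30), Kcnk12 (-1.16 ± 0.18) and Scn8a, a sodium channel of neurons (-1.14 ± 0.24), were lower too. P1 heart and ESC libraries did not overlap for 28 members with heart higher and 53 with heart lower (28% and 40.1% of all bodies).

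In P1 liver 3 channel bodies were higher and 20 lower than in ESC (10.4% and 5.05% of all bodies). The counts were 5 and 49 without W8 heart replicate 2 (20.8% and 12.8%, 33.6% in all). Without W8 heart replicate 1 they were 5 and 48, with no share of all bodies given. Leaving out either ESC replicate or P1 liver replicate 1 left no call, and leaving out P1 liver replicate 2 left 4. The higher ones were Kcne3 (1.36 ± 0.36), Kcnv2 (1.20 ± 0.32) and Kcnq1. The lower ones included the modifier Kcng4 (-1.53 ± 0.30), Cacng2 (-1.51 ± 0.19) and the inward rectifier Kcnj4 (-1.39 ± 0.35). The nerve list had 10 lower bodies of 35 and the heart list none of 19. The median difference was -0.47 over members and 0.10 over all genes, and 69 members were lower than ESC without overlap and 13 higher (29.7% and 41.2% of all bodies).

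Promoter windows ranked the channel genes higher in ESC than in the tissues. The median channel promoter was at 0.992 and 1.01 FPKM in ESC, where the median of all promoters was 0.744 and 0.631. P1 heart had 0.589 and 0.692 FPKM, P1 liver 0.524 and 0.562, W8 heart replicate 1 0.520, and W8 liver 0.255 and 0.248, while 67 of 111 channel promoters had no read in W8 heart replicate 2. ESC was the highest group for 68 members (22.3% of all promoters) and W8 liver the lowest for 46 (12.3%). No member passed in the 6 promoter comparisons that follow, fitted to all 12 libraries (limma). Members with an unadjusted p under 0.05 numbered 24 for W8 heart against W8 liver (0.0074% of all promoters passed), 7 for P1 heart against P1 liver (0.0074%), 8 for P1 heart against ESC (0.0296% higher and 0.0444% lower, 0.074% in all) and 17 for P1 liver against ESC (0.163%). They numbered 16 for W8 heart against P1 heart and 9 for W8 liver against P1 liver (0.0074% of all promoters passed in each). Without W8 heart replicate 1 the count for W8 heart against W8 liver was 14 higher and 29 lower (7.55% and 31.8% of all promoters).

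Without W8 heart replicate 2, 4 promoters were lower in P1 heart than in ESC and none higher (2.7% and 3.01% of all promoters), all of nerve channels. Kcna2, a potassium channel of axons, was listed at 0 in both P1 heart libraries, against 2.11 and 1.26 FPKM in ESC (adjusted p = 0.0151). Cacna1e, a calcium channel of neurons, had 0.196 and 0 FPKM in P1 heart, against 1.74 and 1.26 in ESC (-3.48 ± 0.89), and Scn2b 0.196 and 0.692 FPKM in P1 heart, against 1.49 and 2.33 in ESC (-2.10 ± 0.55). These promoter windows held few reads in P1 heart, where the median window over all genes had 4 and 3. In P1 liver 1 promoter was then higher than in ESC, that of Kcnip1 (1.88 ± 0.55), and 10 were lower (12.3% and 3.26% of all promoters).

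The promoters of the heart channels did not follow their bodies one for one. Kcnh2 had 0.981 and 0.692 FPKM over its promoter in P1 heart, against 1.57 and 1.19 in P1 liver, the reverse of its body at that age. At W8 its promoter had 0.552 and 1.51 FPKM in heart, against 0.254 and 0.463 in liver, and at E14 0.660 in heart, against 0.563 in liver, the same direction as its body. This window held 5 and 3 reads in P1 heart, 6 and 17 in P1 liver and about 1.97 in W8 heart replicate 2. For Kcnj5 P1 heart had 1.96 and 1.38 FPKM, P1 liver 1.31 and 0.702, and ESC 1.61 and 2.33. Kcnj2 stayed at or under 0.378 FPKM in every library. None of these promoter differences between heart and liver passed the test. Across the 111 members, body and promoter levels within a group correlated at r = 0.384 (W8 heart) to 0.735 (W8 liver), as a description, since both come from the same libraries.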

How the data were processed

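Reads were aligned with Bowtie2 to mm9, per the submitters' processing notes; its version was not given in the sources used here, nor was the tool that counted reads. The authors deposited 1 table per library with FPKM of a 4000 bp promoter window and of the gene body. The promoter window spans the start, and the body begins 2000 bp after it, as inferred from annotated lengths. The annotated length exceeded the body length by 2000 bp, within 10 bp, for 25.2% of 13433 matched genes. It did so by 0 bp for 0.00744% and by 4000 bp for 0.0596%, so most genes matched none of these. Depth was recovered from the steps between low FPKM values. Values were taken as log2(FPKM + 0.0746) for bodies and log2(FPKM + 0.0723) for promoters, in each case the non-zero median divided by 10, so that changes of low genes are understated, and genes with a mean under the pseudocount were left out. limma 3.58.1 in R 4.3.3, tested on simulated data, modelled the 12 libraries as 7 group means (5 residual degrees of freedom), and Benjamini-Hochberg adjustment ran over 13498 bodies or 13515 promoters at 0.05. E14 was described without a test. Members and gene lists were chosen with earlier results of these data known. Named in the text are Kcnh2, Kcnq1 and Kcnj5, members of the heart and skeletal muscle lists, up to 25 members past the threshold in each comparison, the highest and lowest of a family, and the nerve channels with the 3 largest changes at W8 and the 3 highest means. Cacng8, Kcna4 and the promoters shown were named after their values were seen. Kcnq3, Kcnn2 and Kcnn4 are the highest or lowest of their families, but their results in the comparisons were picked after the values were seen. Counting errors cover counting only. Some members are counted but not reported by name here.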

Additional observations from a re-analysis of the deposited data

How the results depend on the processing

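The counts of channel bodies called depended on single libraries. Heart against liver at W8 gave 46, and 0 to 60 when 1 replicate was left out. The range was 0 to 31 for P1 heart against P1 liver (30 and 31 without W8 heart replicate 1 or 2, and 0 without any other), 0 to 45 for P1 heart against ESC, 0 to 54 for P1 liver against ESC, 0 to 50 for W8 against P1 heart and 0 to 56 for W8 against P1 liver. For tissue by age it was 0 to 31, and for promoters at W8 0 to 43, the upper value in both coming without W8 heart replicate 1, which leaves the shallow library alone in its group. Where an arm keeps 1 library, it is assumed to vary like the other groups. A pseudocount of the median divided by 2 called 7 members at P1, and median centring called 3 there and 10 for W8 against P1 liver; the causes were not tested. Centring moved the median of all genes from -0.32 to -0.01 at W8 and from -0.23 to 0.02 at P1, and the median of the heart list at P1 from 1.03 to 1.28. No filter on low values left every count as it was. Among the named members, no called difference of heart from liver at P1 or W8 changed sign. For P1 heart against ESC, lower calls outnumbered higher calls with all libraries, and the reverse held after median centring. Replicate numbers did not pair the samples. The correlation of same-numbered deviations ran from -0.01 to 0.04 over 10 pairs, and with the replicate block the counts were 0 at P1, 44 at W8, 20 for P1 heart against ESC, 22 for P1 liver against ESC and 26 for W8 against P1 liver. Depth limits W8 heart replicate 2 and the promoter windows.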
